A study of Mus musculus with 8 samples.

Results

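The 8 genes described here, *Chrdl1*, *Grem1*, *Nog*, *Fst*, *Fstl1*, *Fstl3*, *Bmper* and *Twsg1*, encode secreted proteins that bind bone morphogenetic proteins (BMPs) or activins outside the cell. They were chosen by name, as 8 of the 46517 genes in a count table of 3491 single liver cells. The cells came from adult male and female mice on a *C57BL6/J* background. Some of the mice carried, each as a heterozygous transgene or allele, one or more of the reporters *Pdgfrb*-GFP, *Pdgfra*-H2bGFP, *Acta2*-GFP, *Cspg4*-dsRED and *Cldn5*-GFP, which mark mural, fibroblast or endothelial cells, and the labels give no treatment. Livers were dissociated, single cells were sorted into plates and full-length cDNA was sequenced with the Smart-seq2 protocol, which has no molecular identifiers.

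The study grouped the cells into 4 classes, with a male and a female pool of mice in each. The mesenchymal class held 998 male and 339 female cells, the endothelial class 655 and 451, the immune class 255 and 396, and the epithelial class 358 and 39. A pool of 1 sex is the replicate here (n = 2 pools per class or cluster), since the labels do not name single mice. A difference between the pools could thus be one of sex, of mice, of plates or of the mix of cell types. The epithelial pools differed in that mix, with 201 hepatocytes and 157 cholangiocytes in the male pool and 2 and 37 in the female pool. All 339 female mesenchymal cells came from 1 plate. How many cells a class or cluster holds reflects how the cells were sorted, because reporters and antibodies enriched for some of them. A cell had between 47063 and 1128421 counts, with a median of 228708. Levels are given as CPM (counts per 1000000) of the summed counts of all cells of a pool, and levels of different genes are compared only after division by exon length (CPM per kb). Clusters were made by the authors from the same cells, so a difference between clusters describes them and is no independent test of how they were divided.

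BMPs, growth and differentiation factors and activins are dimeric ligands of the transforming growth factor beta family, which act on target cells through paired type I and type II receptors and SMAD proteins. Antagonists control how far a ligand acts by holding it outside the cell. Noggin (*Nog*), gremlin 1 (*Grem1*) and chordin-like 1 (*Chrdl1*) bind BMPs. Crossveinless-2 (*Bmper*) and twisted gastrulation (*Twsg1*) bind BMPs or chordin and can restrain or help BMP signaling. Follistatin (*Fst*) binds activins with high affinity and also some BMPs, *Fstl3* encodes a relative that binds activins and myostatin, and *Fstl1* encodes a more distant secreted glycoprotein with a follistatin domain. In the liver, BMP signaling is best known for the control of hepcidin, the hormone that limits iron uptake, and of the endothelium.

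*Grem1* and *Bmper* were called higher in different mesenchymal clusters (numbered by the authors), *Grem1* in #m11c and #m15c and *Bmper* in #m8c, #m12c and #m18c, and the 250 bases before their starts are shown because 1 of them carries GGCGCC, a GC-rich element bound by BMP-responsive SMADs, written in capitals. Both sequences are RefSeq's for GRCm38.p6 and read 5′ to 3′ on the gene's strand. The *Grem1* window is chr2:113758649-113758898 on the minus strand and the *Bmper* window is chr9:23222826-23223075 on the plus strand.
Grem1: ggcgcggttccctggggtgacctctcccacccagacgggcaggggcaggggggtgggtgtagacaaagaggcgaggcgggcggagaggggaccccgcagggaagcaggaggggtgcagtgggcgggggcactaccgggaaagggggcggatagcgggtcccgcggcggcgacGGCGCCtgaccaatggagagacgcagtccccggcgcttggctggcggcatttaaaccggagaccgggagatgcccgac
Bmper: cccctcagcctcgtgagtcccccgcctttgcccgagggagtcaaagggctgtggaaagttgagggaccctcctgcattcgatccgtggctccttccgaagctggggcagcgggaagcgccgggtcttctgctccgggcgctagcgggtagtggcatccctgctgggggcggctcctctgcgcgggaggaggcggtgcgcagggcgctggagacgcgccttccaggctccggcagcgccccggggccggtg
GGCGCC is its own reverse complement, so that 1 search covers both strands. It occurred once in the *Grem1* window and in none of the others among the 5 of 8 members matched in the table of promoters, and 9.59% of 32851 windows of the same length held it. Each of the 2 windows held 24 CG pairs, a number reached by 12% of all windows. These matches describe letters and not binding.

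The members lie on 8 chromosomes. In GENCODE's annotation of GRCm38, *Chrdl1* (ENSMUSG00000031283) spans chrX:143285674-143394262, *Grem1* (ENSMUSG00000074934) chr2:113746164-113758646, *Nog* (ENSMUSG00000048616) chr11:89300638-89302332 and *Fst* (ENSMUSG00000021765) chr13:114452290-114458951, all on the minus strand. *Fstl1* (ENSMUSG00000022816) spans chr16:37776873-37836514, *Fstl3* (ENSMUSG00000020325) chr10:79777272-79782630 and *Bmper* (ENSMUSG00000031963) chr9:23223076-23485200 on the plus strand, and *Twsg1* (ENSMUSG00000024098) chr17:65921972-65951226 on the minus strand. Counts were summed over exons. Exons of *Fstl3* overlap those of *Prss57* on the opposite strand, and whether counting used the strand is not given in the sources used here. *Prss57* had 25949 counts, and 567 of the 569 cells with a count of it also had *Fstl3*, so the level of *Fstl3* is uncertain wherever it is given. Exons of *Fst* overlap those of *Gm47040* on the opposite strand, a gene not analysed here, so the same uncertainty holds for *Fst*.

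Among the 4 classes, most antagonists had their highest level in mesenchymal cells. *Fstl1* reached 895 CPM (male) and 867 CPM (female) in mesenchymal cells, against 141 and 370 in endothelial, 46.4 and 186 in epithelial and 4.69 and 7.63 in immune cells. *Chrdl1* was at 153 and 70.9 CPM in mesenchymal cells and at most 2.66 CPM in any other pool. *Twsg1* was at 288 and 230 CPM in mesenchymal cells, 103 and 135 in epithelial, 25.8 and 24.7 in endothelial and 17.8 and 9.85 in immune cells. For each of these 3 genes both mesenchymal pools stood above every pool of the other classes, and for how many of all genes this holds was not counted. *Grem1* (11.1 and 8.63 CPM) and *Fst* (7.74 and 12 CPM) were low in the mesenchymal class as a whole, and stayed at or below 0.156 and 1.25 CPM in the other classes. *Fstl3* was at 108 and 97.5 CPM in mesenchymal cells and nearly as high in epithelial cells, at 73.7 and 88.9 CPM, against at most 9.11 CPM in the pools of the other classes. *Nog* was almost absent, with 63 counts in 9 of 3491 cells, all 9 mesenchymal, and at most 15 counts in a cell.

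Differences between classes were tested with edgeR's quasi-likelihood test on the summed counts, with Benjamini-Hochberg adjustment over all 24046 genes tested, and a call needed a change of 1 or more on the log2 scale besides an adjusted p below 0.05. The fold change sets a class against the mean log level of the other classes. In mesenchymal cells, 5 of 8 members were called higher and none lower, where 11.8% of all genes were called. *Chrdl1* was higher by 8.08 on the log2 scale (SE 1.01, adjusted p = 0.0019), *Grem1* by 7.53 (SE 0.91, adjusted p = 0.0016), *Fstl1* by 4.02 (SE 0.51, adjusted p = 0.0019) and *Twsg1* by 2.96 (SE 0.33, adjusted p = 0.0012). *Nog*, with no count outside the class, had an adjusted p of 0.032, and its call was lost when the sex of the pool was a term in the fit (adjusted p = 0.074). *Fst* did not pass (log2 fold change 5.27, adjusted p = 0.095), but did so under every alternative fit with a test, among them that term (adjusted p = 0.031), DESeq2 (adjusted p = 0.04) and the fit without 26 immune cells annotated Cont (8.15, adjusted p = 0.019). *Fstl3* was not called in the mesenchymal class (3.89, adjusted p = 0.084) or in the epithelial class (3.30, adjusted p = 0.12), but was called higher in both by DESeq2, with no filter, with thinned cells and with sums per plate. Over all genes the median log2 fold change was 0.02.

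In immune cells edgeR called 2 of 8 members, both lower, where 13.2% of all genes were called. *Fstl1* was lower by a log2 fold change of -5.47 (SE 0.79, adjusted p = 0.0035) and *Twsg1* by -2.62 (SE 0.43, adjusted p = 0.0063), with no overlap between immune and other pools for either. *Chrdl1* there was not called with the 26 Cont cells among the immune cells (-1.30, adjusted p = 0.53) and was called lower without them (-4.94, adjusted p = 0.013) and with sums per plate. *Bmper* (-5.11, adjusted p = 0.09) was called lower by DESeq2 (adjusted p = 1.2e-04), with no filter, with thinned cells and with sums per plate, *Grem1* (-3.26, adjusted p = 0.11) by DESeq2 (adjusted p = 0.0093) and *Fst* with sums per plate. In endothelial cells 3 of 8 members were called, against 8.28% of all genes. *Bmper*, at 15.1 and 16.8 CPM, was the antagonist with its highest class level in endothelium (log2 fold change 4.37, SE 1.11, adjusted p = 0.0496), and its pools did not overlap with those of the other classes, where the highest was 8.57 CPM. Without the Cont cells, that call was lost (adjusted p = 0.077). *Chrdl1* (-6.91, SE 1.54, adjusted p = 0.032) and *Twsg1* (-1.66, SE 0.40, adjusted p = 0.043) were lower in endothelium, and the latter call was lost with sums per plate. *Fstl3* there (-5.16, adjusted p = 0.14) was called lower by DESeq2 (adjusted p = 7.6e-04), with no filter, with thinned cells and with sums per plate. In epithelial cells 1 of 8 members was called, *Twsg1* (1.32, SE 0.34, adjusted p = 0.0398), where 12.4% of all genes were called. That contrast averages log levels, in which the low endothelial and immune pools count as much as the high mesenchymal ones, and in CPM the male epithelial pool (103) was not above the mean of the other male pools (111). The call was lost with thinned cells and with sums per plate. Within the class, cholangiocytes had *Twsg1* at 159 and 139 CPM, while male hepatocytes stood below both endothelial pools.

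**Figure D1:**
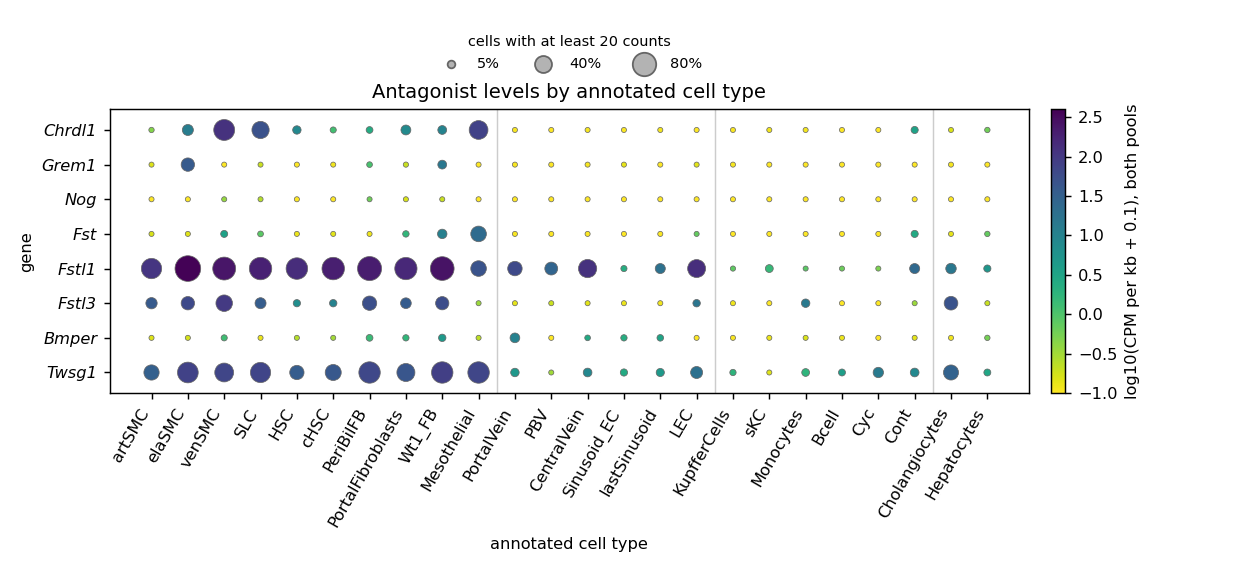
Levels of the 8 members in 24 annotated cell types. Columns are annotated types and rows are genes, the color gives the log10 of CPM per kb plus 0.1 for both pools together, and the size of a dot gives the percent of cells with at least 20 counts of the gene. *Fstl1* and *Twsg1* were spread over the mesenchymal types, *Chrdl1* was highest in venSMC and *Grem1* in elaSMC.

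The order of levels was taken over the 18 annotated types that had at least 5 cells in each pool, which leaves out mesothelial cells (given below), HSC, hepatocytes and others. Over the 18 types *Chrdl1* was highest in venous smooth muscle cells (venSMC, nearly all cells of #m8c and #m9c together), at 744 ± 219 CPM (SD, n = 2 pools), and the pools of the next type, second layer cells (SLC, 270 ± 246 CPM), did not reach them. SLC overlapped with the third type, elaSMC (105 ± 54.0 CPM). *Fstl1* was highest in elaSMC, at 1860 ± 11 CPM, without overlap with venSMC at 1234 ± 73.1 CPM, and venSMC, *Wt1*+ fibroblasts and peribiliary fibroblasts overlapped in turn. Sinusoidal endothelium (9.53 ± 2.71 CPM) and Kupffer cells (2.90 ± 1.07 CPM) stood at the low end. *Grem1* led in elaSMC (232 ± 176 CPM), followed without overlap by *Wt1*+ fibroblasts (51.9 ± 50.6 CPM). *Twsg1* was flat at the top, where *Wt1*+ fibroblasts (412 ± 146 CPM), elaSMC, SLC, peribiliary fibroblasts and venSMC each overlapped with the next. *Bmper* was highest in portal vein endothelium (53.1 ± 30.9 CPM), *Fst* in *Wt1*+ fibroblasts (50.6 ± 1.98 CPM) and *Fstl3* in venSMC (211 ± 76.1 CPM), and none of these 3 was separated from the next type. The small SD of *Fst* joins clusters whose pools disagreed, since the male pool was high in #m11c and the female pool in #m12c.

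Vascular mural cells, the contractile or supporting cells wrapped around vessels, formed 5 of the 18 mesenchymal clusters and 467 cells. Cluster #m2c (127 male and 109 female cells) was arterial smooth muscle, #m8c (60 and 12) portal vein smooth muscle and #m9c (29 and 10) venous smooth muscle. Cluster #m15c (7 and 26) was annotated elaSMC, and the study proposes that its cells lie mainly in large veins. Cluster #m5c (66 and 21) held cells annotated SLC, which lie outside the smooth muscle layer of veins. The study assumed this identity, and found #m5c more like fibroblasts than like mural cells. Markers of the clusters followed the names in 4 of the 5. *Acta2*, the smooth muscle actin, was at 7914 and 5895 CPM in the male and female pools of #m2c, 5661 and 5951 in #m15c, 3309 and 3023 in #m9c, 2688 and 3846 in #m8c, and 286 and 934 in #m5c. *Pln* was highest in #m2c (908 and 566 CPM), *Ephx3* in #m8c (1595 and 2068), *Ccn3* in #m9c (309 and 269) and *Npnt* in #m15c (985 and 1790). For SLC, *Ncam1* was at 398 and 295 CPM in #m5c but was higher in #m15c (677 and 585), and *Cdh3*, the other marker set for them, was at 11.6 and 0.662 CPM in #m5c and was higher in #m15c, #m8c and #m9c. Summed markers of other types ranged over the mural pools from 119 to 805 CPM for 4 hepatocyte genes, 2.95 to 16 CPM for 4 endothelial genes and 0 to 6.75 CPM for *Ptprc*. Other mesenchymal lists ranged more widely, from 560 CPM in #m2c to 9181 CPM in #m5c for 6 fibroblast genes and from 43.7 CPM in #m2c to 2381 CPM in #m5c for 5 stellate genes, and 3 genes of portal vein endothelium from 3.67 to 579 CPM. Their part in the levels below was not tested.

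*Chrdl1* was high in #m9c and #m8c, lower in #m5c and #m15c and nearly absent from the arterial #m2c. In #m9c its pools were at 1110.4 CPM (male) and 877 CPM (female), and it was at 811 and 237 in #m8c, 452 and 95.7 in #m5c, 121 and 75.2 in #m15c, and 1.31 and 3.21 in #m2c. In each sex #m9c was the highest and #m2c the lowest, and the male pool was above the female in every mural cluster but #m2c. The study itself named *Chrdl1* a marker of #m9c, so that cluster is described with no test, at 1.68 (male) and 3.09 (female) log2 units over the mean CPM of the other mural clusters. In #m2c, *Chrdl1* was lower than in the other mural clusters, #m9c among them, by a log2 fold change of -7.28 (SE 0.92, adjusted p = 0.0024), with no overlap of pools.

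In single cells, the clusters differed in the share of cells with high counts. At 20 counts or more, the limit the study used for detection, *Chrdl1* was found in 29 of 39 cells of #m9c, 40 of 72 of #m8c, 37 of 87 of #m5c, 5 of 33 of #m15c and 1 of 236 of #m2c. A single count was a poor guide, since 29.7% of #m2c cells (exact 95% interval 23.9 to 35.9%) had 1 or more while the median among them was 1 count. The median cell was at 987 CPM in #m9c (quartiles 159 and 1550), 282 CPM in #m8c (0 and 1110), 8.51 CPM in #m5c (0 and 468), 1.87 CPM in #m15c (0 and 6.98) and 0 in #m2c. In each of the 5 clusters some cells had no count of *Chrdl1*, and 32 of 39 cells of #m9c had 1 or more. Over plates with at least 5 cells, #m9c ranged from 877 to 2398 CPM on 4 plates, #m5c from 95.7 to 595 on 6 and #m8c from 1.62 to 945 on 5.

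**Figure D2:**
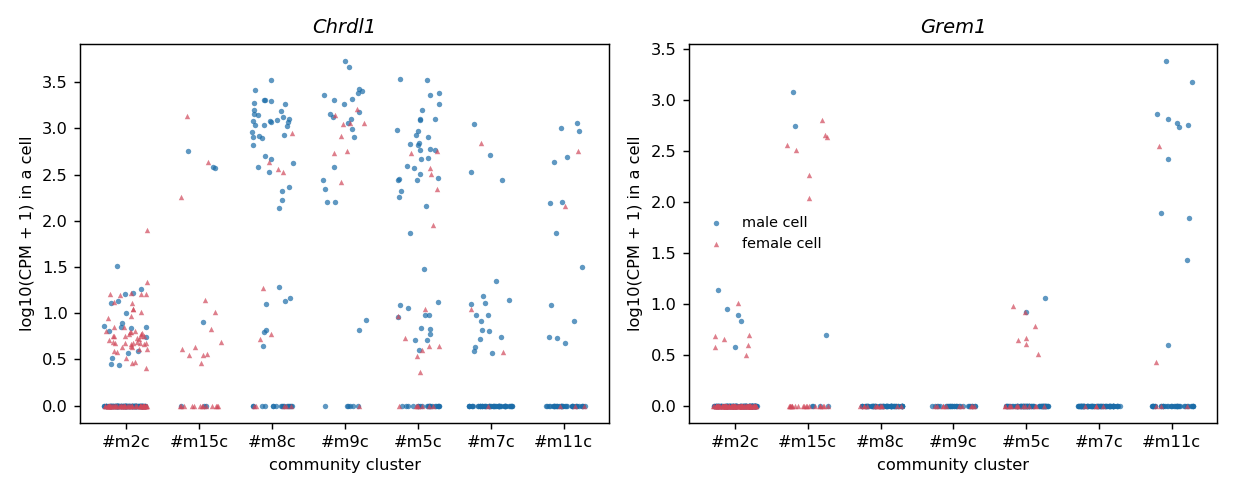
*Chrdl1* and *Grem1* in single cells. Each point is 1 cell, the y axis is the log10 of CPM plus 1 and the x axis gives the 5 mural clusters, HSC (#m7c) and the *Wt1*+ fibroblast cluster #m11c. *Chrdl1* was at 20 counts or more in 29 of 39 cells of #m9c and 1 of 236 of #m2c, and no cell of #m8c, #m9c or #m7c had a count of *Grem1*.

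*Grem1* was high in #m15c and nearly absent from the rest of the mural wall. In #m15c it was at 385 CPM (male) and 100.1 CPM (female), followed by 0.234 and 0.240 in #m2c and 0.132 and 0.927 in #m5c, with no count in any of 72 cells of #m8c or 39 cells of #m9c. The 2 pools of #m15c stood far above all 8 other mural pools. *Grem1* was higher in #m15c by a fitted log2 fold change of 11.88 (SE 1.13, adjusted p = 0.0032), a value that is no bound because 4 of the 8 other sums were at 0. With both pools together (151 CPM) and a floor of 3 counts per cluster, #m15c was at least 888-fold higher than #m8c and at least 506-fold higher than #m9c. Neither bound was taken for 1 pool alone, and neither need hold for the female pool, at 100.1 CPM. The counts came from few cells. *Grem1* was seen in 10 of 33 cells of #m15c (8 of them at 20 counts or more), and 33.2% of its counts were in 1 cell. In #m5c 10.3% of cells had a count and none had more than 1. No cell of #m15c had both *Chrdl1* (5 cells) and *Grem1* (8 cells) at 20 counts or more.

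*Fstl1* was above 500 CPM in every mural pool and was highest in #m15c and #m9c. It was at 1909 and 1839 CPM in #m15c, 1827 and 1452 in #m9c, 925 and 882 in #m5c, 911 and 895 in #m8c, and 594 and 508 in #m2c. Both pools of #m2c stood below all others. The difference in #m2c was a log2 fold change of -1.20 (SE 0.24, adjusted p = 0.021), and was not called with sums of at least 10 cells or with sums per plate. In #m15c the difference of 0.95 (SE 0.21, adjusted p = 0.059) was not called, although its 2 pools stood above the other 8, and it was called with thinned cells (1.16, adjusted p = 0.046). With sex as a term its adjusted p was 0.025, with the difference still under 1. Its level varied among cells. A count was found in 90.3% of #m2c cells to 100% of #m15c cells, but 139 of 236 cells of #m2c had 20 or more, and the lower quartile of #m2c was at 25.4 CPM. *Fstl1* was also the most abundant member per kb of exon in each mural cluster, at 341 CPM per kb in #m9c, where *Chrdl1* was at 150.4, *Fstl3* at 120.1 and *Twsg1* at 58.6 CPM per kb. In #m2c *Fstl1* was at 110.1 CPM per kb and *Chrdl1* at 0.365 CPM per kb.

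*Twsg1* was present in all 5 mural clusters. It was at 396 and 391 CPM in #m8c, 365 and 380 in #m15c, 400 and 321 in #m5c, 328 and 263 in #m9c, and 199 and 143 in #m2c. The 2 pools of #m2c were the lowest, and the difference was not called (log2 fold change -1.05, adjusted p = 0.22). *Fstl3* was at 421 and 105 CPM in #m9c, 199 and 227 in #m8c, 171 and 145 in #m15c, 48.8 and 166 in #m5c and 109 and 88.6 in #m2c. The male pool was the higher one in #m9c and the female pool in #m5c, and all 5 clusters overlapped with another. With both pools together, *Prss57* on the opposite strand ran from 193 CPM in #m9c to 50.1 CPM in #m5c.

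*Fst* and *Bmper* were rare in the mural wall. *Fst* was at 24.9 and 23 CPM in #m8c, 0.794 and 8.74 in #m5c, and at most 0.420 CPM in the pools of the other 3 clusters. *Bmper* was at 2.73 and 35.9 CPM in #m8c and at most 1.17 CPM elsewhere. The pools of #m8c were the highest of the wall for both genes, but only 4 of its 72 cells had 20 or more counts of *Fst* and 2 had as many of *Bmper*, and 1 cell held 44.6% and 74.8% of the respective counts. *Nog* had 13 counts in 2 cells of #m8c, 6 counts in 1 cell of #m5c and none in the other 3 clusters.

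**Figure D3:**
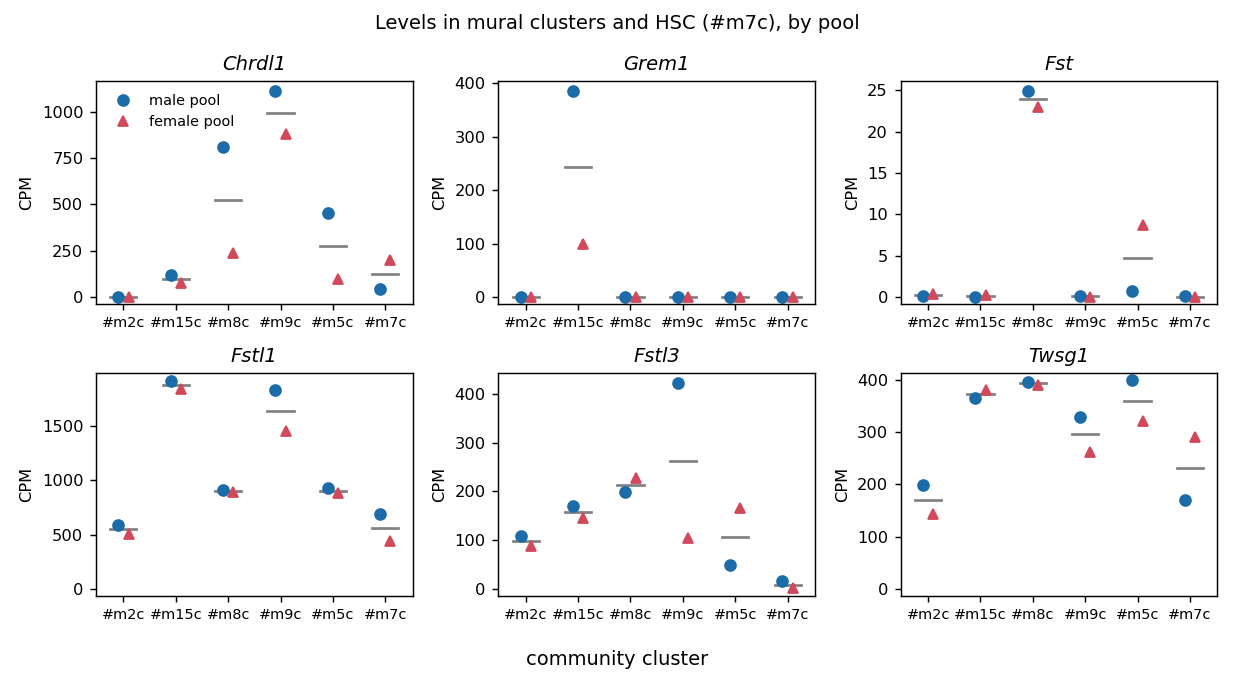
Members in the mural clusters and HSC (#m7c). The y axis is CPM of the summed counts, with a circle for the male and a triangle for the female pool and a grey line for their mean. *Chrdl1* peaked in #m9c (1110.4 and 877 CPM), *Grem1* in #m15c (385 and 100.1 CPM) and *Fst* in #m8c (24.9 and 23 CPM).

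Between mural clusters, 7 members were tested among 15177 genes, and *Nog* was too low. In #m2c 2 of 7 were called, both lower, where 2.79% of all genes were called. In #m15c 1 of 7 was called, against 0.929%. In #m8c 0 of 7 were called by edgeR, where 0.184% of genes were, although *Chrdl1*, *Fst* and *Bmper* had an unadjusted p under 0.05 (adjusted p = 0.084, 0.14 and 0.18), and both DESeq2 and edgeR with no filter called all 3 higher. In #m5c 0 of 7 were called by edgeR and by DESeq2, with 0.843% of genes called and *Chrdl1* and *Fst* at an unadjusted p under 0.05, and edgeR with no filter called *Chrdl1* higher (1.37, adjusted p = 0.034). In #m9c 0 of the 6 members other than *Chrdl1* were called by either tool, with 0.435% of genes called by edgeR and *Fstl1* at an unadjusted p under 0.05.

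The mural wall differed in how many antagonists a cell carried. At 20 counts or more, the median number of members per cell was 3 in #m9c, 2.5 in #m8c, 2 in #m5c and in #m15c and 1 in #m2c. Cells with 3 or more members made up 53.8% of #m9c, 50% of #m8c, 45.5% of #m15c and 31.0% of #m5c, but 6.78% of #m2c. Fibroblast clusters had such cells as well, 47.2% of #m11c, 27.4% of #m4c and 25% of #m12c, and the HSC clusters #m7c and #m3c had 2.78% and 1.77%. Depth differed as well, with a median of 122646 counts per male and 267377 per female cell in #m2c, 170117 and 347772.5 in #m9c and 147698 and 276121.5 in #m15c. In #m9c, 23 of the 29 cells with *Chrdl1* also had *Fstl1*, which 31 of all 39 cells had, and 16 had *Twsg1*, which 21 of 39 had. In #m15c all 8 cells with *Grem1* had *Fstl1* and *Twsg1*, which 32 and 21 of all 33 cells had.

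Set against the other mesenchymal clusters (17270 genes and 7 members tested over 11 clusters with at least 5 cells in each pool), the mural group had 1 of 7 members called, where 2.91% of all genes were. That member was *Chrdl1*, with a mean over clusters of 499 CPM in male and 258 CPM in female mural pools against 39.1 and 40.7 CPM in the others (log2 fold change 2.91, SE 0.38, adjusted p = 2.88e-05). The groups overlapped, since #m2c was lower than most fibroblasts. The mural mean includes #m9c, of which the study had named *Chrdl1* a marker on these cells. That cluster is also on the other side of the single contrasts that follow. Taken singly, #m8c had 3 of 7 called higher (2.6% of all genes called), namely *Chrdl1* (4.0, SE 0.45, adjusted p = 3.7e-05), *Fst* (4.21, SE 1.13, adjusted p = 0.046) and *Bmper* (4.35, SE 1.14, adjusted p = 0.044). *Bmper* there lost its call with sex as a term (adjusted p = 0.15), and both *Fst* and *Bmper* lost it with DESeq2, with sums of at least 10 cells and with sums per plate. In #m15c 1 of 7 was called (3.22% of all genes), *Grem1* (9.25, SE 0.86, adjusted p = 6.59e-06). In #m2c 1 of 7 was called (6.22%), *Chrdl1* (-4.63, SE 0.91, adjusted p = 0.0019). In #m5c 1 of 7 was called (1.23%), *Chrdl1* (2.95, SE 0.48, adjusted p = 0.0041), where the female pool, at 95.7 CPM, was below the mean CPM of the other female pools by 0.59 on the log2 scale.

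HSC, the vitamin A-storing mesenchymal cells of the sinusoid, had *Fstl1* and *Twsg1* but few counts of most other members. In #m7c (68 male and 4 female cells) *Chrdl1* was at 43.0 and 201 CPM, *Fstl1* at 688 and 442, *Twsg1* at 171 and 290 and *Fstl3* at 16.1 and 3.35. *Grem1* and *Nog* had no count there. This cluster had too few female cells for the test. In the capsular HSC of #m3c, *Chrdl1* was at 9.07 and 3.33 CPM and *Fstl1* at 941 and 1129 CPM. Of 7 members 1 was called in #m3c (2.61% of all genes), *Chrdl1* at -3.05 (SE 0.81, adjusted p = 0.044), and the call was lost with sums of at least 3 or 10 cells and with sums per plate.

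The 2 clusters of *Wt1*+ fibroblasts differed in *Grem1*, *Chrdl1* and *Bmper*, with no test of one cluster against the other. At 20 counts or more, both held *Fstl1* (45 of 53 cells of #m11c and 48 of 60 of #m12c) and *Twsg1* (38 and 37 cells). *Grem1* was at 132 and 77.8 CPM in #m11c and at 0 and 0.113 CPM in #m12c. In #m11c these counts came from few cells, since the median cell was at 0 and 9 of 53 cells had 20 or more counts. *Chrdl1* was at 123 and 168 CPM in #m11c and 0.634 and 1.58 CPM in #m12c. *Bmper* ran the other way, at 1.12 and 1.30 CPM in #m11c and 33.1 and 47.8 CPM in #m12c. For each of these 3 genes the pools of the 2 clusters did not overlap, and for how many of all genes this holds was not counted. In #m11c 3 of 7 members were called higher (2.82% of all genes), *Grem1* (8.07, SE 0.86, adjusted p = 1.92e-05), *Fst* (4.97, SE 1.1, adjusted p = 0.013) and *Chrdl1* (2.05, SE 0.52, adjusted p = 0.029), the last with CPM below the mean of the other clusters in the male pool. Calls of *Fst* in both clusters and of *Chrdl1* in #m11c were lost with cells thinned to 50000 counts, and the latter also with DESeq2, with sums of at least 3 cells and per plate. In #m12c 3 of 7 were called (4.31%), with *Bmper* (5.54, SE 1.08, adjusted p = 0.0042) and *Fst* (4.79, SE 1.10, adjusted p = 0.011) higher and *Chrdl1* (-5.68, SE 0.98, adjusted p = 0.0015) lower. The call of *Fst* in #m12c was lost with sex as a term (adjusted p = 0.0501). *Fst* was at 71.9 and 1.30 CPM in #m11c and 4.44 and 65.2 CPM in #m12c, so the male pool was high in one and the female pool in the other. *Twsg1* reached its highest pool level here, 655 CPM in the male pool of #m12c (358 in the female).

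Among portal fibroblasts, *Bmper* was called in #m18c. In this cluster (6 male and 81 female cells) *Bmper* was at 65.6 and 9.95 CPM (5.41, SE 1.1, adjusted p = 0.012), the 1 of 7 members called there (1.22% of all genes). Its high male value rested on 1 of 6 cells with 20 or more counts, and the call was lost with sums per plate. In #m6c, mostly portal fibroblasts, 1 of 7 members was called (12.4% of all genes), *Twsg1* at 90.4 and 14.3 CPM (-2.18, SE 0.64, adjusted p = 0.027), without overlap with the other clusters, and the call was lost with sums of at least 3 cells or per plate and with thinned cells. Summed hepatocyte markers in #m6c were at 1579 and 5282 CPM in the male and female pool, and their part in this difference was not tested. Peribiliary fibroblasts of #m4c had *Fstl1* at 932 and 1413 CPM, *Twsg1* at 356 and 351 CPM and *Grem1* at 4.93 and 0.299 CPM. The 6 mesothelial cells, too few for the order of types above, had *Chrdl1* at 977 and 74.6 CPM and *Fst* at 44.4 and 162 CPM, from 4 male and 2 female cells.

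In endothelium *Fstl1* was the member that edgeR called between clusters. Over 8 clusters, 3 members passed the filter on low counts among 18321 genes tested, *Fstl1*, *Bmper* and *Twsg1*. *Fstl1* was at 476 and 849 CPM in #e1 and 417 and 562 CPM in #e7, both central vein, 189 and 866 CPM in the lymphatic cluster #e4 and 228 and 348 CPM in the portal vein cluster #e2. In the sinusoidal clusters it was at 13.5 and 2.15 CPM in #e3, 5.24 and 13.7 in #e5 and 11.8 and 6.58 in #e8. The last sinusoidal segment, #e6, lay between, at 60.4 and 103 CPM. Every venous and lymphatic pool was thus above every sinusoidal pool.

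**Figure D4:**
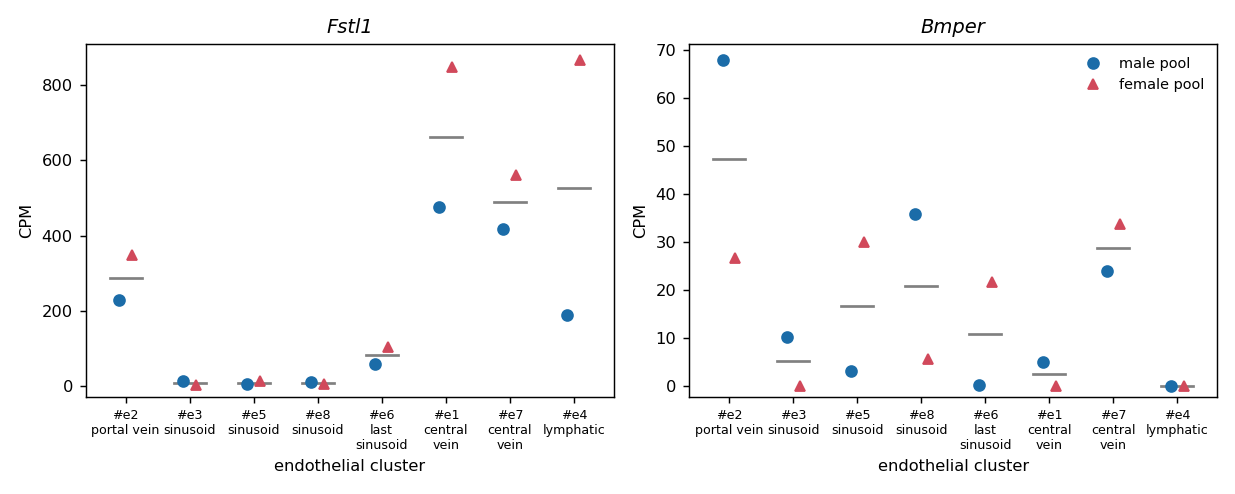
*Fstl1* and *Bmper* in the endothelial clusters. The y axis is CPM of the summed counts per pool, with a circle for male and a triangle for female, and clusters run from portal vein (#e2) over sinusoid (#e3, #e5, #e8, #e6) to central vein (#e1, #e7) and lymphatic (#e4). *Fstl1* was between 417 and 849 CPM in the central vein pools and between 2.15 and 13.7 CPM in #e3, #e5 and #e8.

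*Fstl1* was called higher in #e1 (3.38, SE 0.46, adjusted p = 0.0011), as 1 of 3 members where 1.41% of all genes were called. It was the 1 of 3 members called in #e7 (3.22, SE 0.46, adjusted p = 0.0024, with 1.27% of all genes called) and in #e4 (2.97, SE 0.47, adjusted p = 9.88e-04, with 6.8%). It was lower in #e3 (-3.93, SE 0.80, adjusted p = 0.038, with 0.633% of all genes called) and in #e8 (-3.78, SE 0.79, adjusted p = 0.0496, with 0.469%), and both of these calls were lost with sex as a term (adjusted p = 0.094 and 0.061). That of #e3 was also lost with sums per plate. In #e5, where 0.0764% of all genes were called, *Fstl1* just missed the threshold (-3.75, adjusted p = 0.055). It was called lower there by DESeq2 (adjusted p = 3.7e-05), with no filter, with sums of at least 10 cells or per plate and with thinned cells, and not with sex as a term (adjusted p = 0.092). In #e2 0 of 3 members were called by edgeR or DESeq2, where 1.93% of all genes were called by edgeR, and *Fstl1* and *Bmper* had an unadjusted p under 0.05. *Fstl1* in #e2 (1.96, adjusted p = 0.057) was called higher by edgeR with no filter, with sums of at least 10 cells or per plate and with thinned cells (adjusted p between 5.7e-04 and 0.03). *Bmper* was at 67.8 and 26.6 CPM in #e2, 24 and 33.7 in #e7, 4.97 and 0 in #e1, 10.3 and 0 in #e3, 3.21 and 30.0 in #e5, 0.165 and 21.7 in #e6 and 35.9 and 5.60 in #e8. No cluster had both pools above the rest. In #e4 none of 22 cells had a count of *Bmper*, and 3 cells in 22, the limit used for a count of 0, would be 13.6% of cells with a count. DESeq2 called *Bmper* lower there (-6.94, adjusted p = 0.012). *Bmper* was at 20 counts or more in 12 of 128 cells of #e2 and in 30 of 1106 endothelial cells in all. *Twsg1* was at 30.6 and 130 CPM in #e4 and between 0 and 55.5 CPM in the pools of the other clusters, so only the female pool of #e4 stood above the rest. It was not called there by edgeR (2.12, adjusted p = 0.32). *Fstl3* (201 counts in 1 cell) and *Fst* (15 counts in 1 cell) were below the filter on low counts, and both were called higher in #e4 with no filter, *Fstl3* also with sums per plate.

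Epithelial and immune types had mainly *Twsg1*, *Fstl3* and *Fstl1*. Cholangiocytes, the cells that line bile ducts, had *Twsg1* at 159 and 139 CPM, *Fstl3* at 121 and 91.2 CPM and *Fstl1* at 60.2 and 189 CPM. Male hepatocytes had *Twsg1* at 14.6 CPM and *Fstl1* at 24.8 CPM. Kupffer cells had *Fstl1* at 2.14 and 3.65 CPM and *Twsg1* at 11.1 and 8.82 CPM. Monocytes had *Fstl3* at 35.0 CPM in the male pool, where *Prss57* was at 27.5 CPM over both pools.

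The rest of the pathway was followed with 6 lists of 74 genes (ligands, activin-related ligands, receptors, other antagonists, chordin proteases, and response genes with SMADs). Of 66 tested between classes, 25 were higher and none lower in mesenchymal cells, 12 higher and 5 lower in endothelial cells, 15 and 8 in epithelial cells, and 3 and 13 in immune cells. Over all genes, 9.47% were called higher and 2.33% lower in mesenchymal, 5.33% and 2.96% in endothelial, 8.37% and 4.05% in epithelial and 7.92% and 5.25% in immune cells. In the mesenchymal class 7 of 12 BMP and GDF ligands and 7 of 15 other antagonists were higher. *Gdf2*, which encodes BMP9, was at 262 and 131 CPM there (8.71, SE 1.08, adjusted p = 0.0018), and *Smoc2*, a matricellular protein, at 1180 and 1057 CPM (8.18, SE 0.93, adjusted p = 0.0013). Endothelium held *Bmp2* at 899 and 382 CPM (5.42, SE 0.40, adjusted p = 6.5e-04), *Eng*, a BMP9 co-receptor, at 3411 and 3885 CPM (4.18, SE 0.36, adjusted p = 9.6e-04), and *Smad6*, an inhibitory SMAD, at 143 and 132 CPM (2.77, SE 0.46, adjusted p = 0.011). Epithelial cells held *Hamp*, the hepcidin gene, at 38.5 and 17.7 CPM (4.20, SE 0.75, adjusted p = 0.0093), and *Inhba*, an activin subunit, at 23 and 112 CPM (6.69, SE 0.64, adjusted p = 7.3e-04). The male epithelial pool held 201 hepatocytes and 157 cholangiocytes and the female pool 2 and 37, so these levels are of different mixes of cells.

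Within the mesenchyme, 57 genes of these lists were tested. In the mural group 2 were higher and 4 lower than in the other clusters, none of them among 14 receptors or 16 response genes and SMADs, where 1.26% of all genes were called higher and 1.64% lower. *Crim1*, a membrane-bound antagonist, was higher (2.85, SE 0.71, adjusted p = 0.025), and *Gdf10* (-2.75, SE 0.33, adjusted p = 1.16e-05) and *Bmp4* (-1.60, SE 0.38, adjusted p = 0.018) were lower. *Smoc2* (-2.56, SE 0.36, adjusted p = 7.2e-05) was lower too, and *Nbl1* (-1.37, SE 0.38, adjusted p = 0.046), named after its value was seen, was the fourth that was lower. In #m5c 2 of 11 BMP and GDF ligands were higher, *Gdf6* at 300.1 and 90.3 CPM (4.05, SE 0.94, adjusted p = 0.034) and *Gdf2* at 385 and 249 CPM (3.99, SE 0.78, adjusted p = 0.014). The mean CPM of the other clusters was 57.3 and 17.8 for *Gdf6* and 157 and 167 for *Gdf2*, and #m5c overlapped with them for both genes. The fold change averages log levels, and the HSC of #m7c are not in this fit. In #m9c the same 2 ligands were called higher, *Gdf6* at 212 and 81.7 CPM (3.72, SE 0.96, adjusted p = 0.043) and *Gdf2* (3.44, SE 0.81, adjusted p = 0.028). The latter was named after its value was seen. Against the mean CPM of the other clusters, its male and female pools did not go the same way. No other list had a call in #m5c or #m9c, where 1.23% and 1.9% of all genes were called.

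Likeness across the mesenchyme was described by Pearson's r of log2(CPM + 1) over 28 sums of a cluster and pool, among 15810 genes. These sums share plates and pools, so r has no test. The genes most like *Chrdl1* were *Gpc6* (r = 0.753), *Sdc1* (0.722) and *Igfbp3* (0.694), the first 2 of which encode cell-surface heparan sulfate proteoglycans. For *Grem1* they included *Cacna2d3* (0.857) and *Macrod2* (0.784). Those for *Fst* were *Ifi207* (0.761), *Ccdc170* (0.753) and *Lrrn2* (0.697), and those for *Bmper* were *Sh2d4b* (0.794), *Ormdl2* (0.706) and *B3galt6* (0.690). *Fstl1* was most like *Nedd4* (0.740), *Glrx3* (0.725) and *Anxa1* (0.722), and *Twsg1* most like *Septin2* (0.841), *Sec24d* (0.805) and *Ctnnb1* (0.803). *Fstl3* was most like the overlapping *Prss57* (0.984), far above *Tor1a* (0.771) and *Wwtr1* (0.761). Among the members themselves the highest r was 0.590, between *Fstl1* and *Twsg1*, and that between *Chrdl1* and *Grem1* was 0.186.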

How the data were processed

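Single liver cells of 8 samples (4 cell classes, each a male and a female pool of mice, n = 2 per class) were analysed. The authors deposited raw counts per gene and cell, and per the submitters' processing notes they used bcl2fastq, Bowtie, Bowtie2, Subread with featureCounts and Seurat, with the builds GRCm38 and mm10. The aligner's and counter's versions and the strand setting are not given in the sources used here. The table held 46609 rows for 3491 cells on 22 plates, of which 92 spike-ins (1.95% of counts) were left out. Annotations and cluster numbers were the authors'. The authors' own tests treated cells as units and were not used.

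Counts were summed per class or cluster and pool (at least 5 cells per sum) and tested with edgeR 4.0.16 (limma 3.58.1, R 4.3.3), with TMM, filterByExpr, glmQLFit and glmQLFTest and Benjamini-Hochberg adjustment over all genes tested. The steps were tested on simulated data. Alternatives were DESeq2 1.42.0, no filter, sex as a replicate block, cells thinned to 50000 counts, sums of at least 3 or 10 cells, sums per plate, each pool left out and, chosen after seeing the data, the class fit without 26 immune cells annotated Cont. The limit for a share at 0 was 3 cells of the total. Levels, intervals (exact binomial, 95%, counting error only) and figures were made with Python 3.11.15, pandas 2.3.3, scipy 1.17.1, numpy 2.4.6 and matplotlib 3.10.9.

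Sums of 1 sex may share mice, which would pair them. Deviations of same-sex sums correlated with a median r of 0.119 over 6 pairs of classes, 0.0855 over 55 pairs of mesenchymal clusters (range 0.0108 to 0.164) and 0.0403 over 28 pairs of endothelial clusters. Nothing says which cells came from which mouse, so p-values measure the spread between these pools.

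The 8 members were eligible to be named in every comparison, and in some those not called are given by count only. From 6 lists of pathway genes, up to 3 called genes per list with the largest change in the same direction in both pools were eligible to be named, and for each member the 3 genes with the highest r over mesenchymal sums. The members and lists were chosen with earlier results of these data known. The text names some of the genes that this rule allows, and the others are not reported here.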

Additional observations from a re-analysis of the deposited data

Results flagged for a closer look

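In 4 cluster contrasts the male and the female pool moved in opposite directions by at least 1 on the log2 scale each, with at least 10 CPM in 1 of the pools. Smaller opposite moves are not counted. The values are the log2 ratio of the cluster's CPM to the mean CPM of the other clusters of the same sex. *Bmper* in the sinusoidal cluster #e5 was at -2.67 in the male and 1.26 in the female pool, and in #e8 at 1.19 and -1.52. *Fst* in the *Wt1*+ fibroblast cluster #m11c was at 4.53 and -3.14, and in #m12c at -1.15 and 3.68. With 1 pool per sex these differences between the pools were not tested. *Fst* in #m12c had 71.6% of its counts in 1 cell.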

How the results depend on the processing

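Of 35 called pairs of member and contrast, 20 kept their call under all alternatives tested on them and 15 lost it under at least 1. Between classes 11 pairs were called, 17 with DESeq2 and 20 with no filter. Between mural clusters 3 were called, 6 with DESeq2, 7 with no filter and 1 with sums of at least 10 cells, a limit that drops the male pool of #m15c. Between mesenchymal clusters 16 were called, and 7 with sums of at least 10 cells, which leaves fewer clusters. Between endothelial clusters 5 were called, 9 with no filter and 3 with the replicate block for the sex of the pool. The block also ended the call of *Nog* between classes and of *Bmper* in #m8c and *Fst* in #m12c between mesenchymal clusters, gave one to *Fst* in the mesenchymal class, and changed no other call. With 1 pool left out no test is possible, and of the called pairs 11 to 11, 3 to 3, 15 to 16 and 5 to 5 stayed past 1 log2 in the same direction in the class, mural, mesenchymal and endothelial contrasts. Of the 35 values, 10 moved by more than the spread between pools without replicate 1, the male pools, and 4 without replicate 2, the female pools. *Fst* in #m11c turned to -0.40 without the male pools and was at 7.6 without the female ones. Without the male pools, *Bmper* went to 7.54 in the endothelial class and 3.27 in #m18c, *Nog* to 4.85 in the mesenchymal class, *Chrdl1* to 1.73 in #m5c and *Twsg1* to -3.50 in #m6c. Without the female pools, *Bmper* went to 1.61 in #m8c and *Fstl1* to 1.83 in #e4. *Fstl1* in #e3 was at -5.83 without the male and -2.87 without the female pools. Sums per plate ended 10 of 33 calls. Further calls that an alternative added included *Fstl1* in endothelium and *Bmper* in mesenchymal cells with no filter, *Grem1* in epithelial cells by DESeq2, and, between mesenchymal clusters, *Bmper* in the mural group (lower) and *Fstl1* in #m2c (lower) by DESeq2, *Fstl3* in the mural group (higher) with sums of at least 3 cells and *Nog* in #m8c (higher) with no filter. The causes of these changes were not tested. Of 40 mural levels, 21 were at 10 CPM or more, and 21 and 22 as a mean over cells and with thinned cells. With 1 plate for all female mesenchymal cells and 7 cells in the male pool of #m15c, rare members such as *Fst*, *Bmper* and *Nog* rest on a few cells.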

Other observations

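The 26 immune cells annotated Cont had *Chrdl1* at 21.9 CPM, *Fst* at 11.8 CPM and *Fstl1* at 118 CPM, against 0.0677, 0 and 3.37 CPM in Kupffer cells, and 1 of the 26 had 20 or more counts of *Chrdl1*. In #m8c, 1 of the 5 plates with at least 5 cells had *Chrdl1* at 1.62 CPM where the median plate had 635 CPM. No explanation was tested for either.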
